A study of Mus musculus with 10 samples.

Results

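Creatine metabolism was described in mouse quadriceps through 6 genes, taken by symbol from the deposited tables: Gamt and Gatm for synthesis, Slc6a8 for uptake, and the creatine kinases Ckm, Ckb and Ckmt2. They are 6 of 24063 gene symbols in the tables, and all 6 were among the 13880 genes with enough reads to be tested. Each symbol has a single RefSeq transcript in the tables except Slc6a8, whose 3 transcripts carried identical counts in every library, so the choice among them changed no count. RNA was sequenced from 10 libraries. The 1C-MIM group (5 libraries) came from wild-type C57BL mice of 17 to 20 months whose drinking water carried a supplement named 1C-MIM, whose makeup the sources used here do not give. The Control group (5 libraries) came from wild-type C57BL mice of the same ages given the facility's water alone. The supplement was provided for 1 to 3 months. All animals of both groups also had a tibialis anterior muscle injured before collection, and the RNA came from the uninjured quadriceps. The sources give 150 mL of water and up to 5 mice per cage, for both groups alike. They do not give sex, which animals shared a cage, or the time from injury to collection. The libraries are numbered as separate animals, so n counts animals. Whether animals of a group shared a cage, and so its water, is not known.

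Creatine carries high-energy phosphate between the sites where ATP is made and the sites where it is spent. It is made in a pair of steps: Gatm (AGAT) joins arginine and glycine to guanidinoacetate, and Gamt methylates this with S-adenosylmethionine, which ties the pathway to one-carbon metabolism. In mammals kidney and liver carry out most of this synthesis, and skeletal muscle takes creatine from blood through the transporter Slc6a8. Inside the fibre, mitochondrial creatine kinase (Ckmt2, the sarcomeric form) charges creatine to phosphocreatine, and the cytosolic muscle form (Ckm), part of it bound at the M band, uses phosphocreatine to restore ATP. Ckb is the cytosolic form of brain and many other tissues.

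The libraries held 28521254 to 31771296 counts after 1 transcript was kept per symbol. All 9 skeletal muscle markers were tested and their summed level was 166982 to 193472 counts per 1000000 (CPM, scaled with TMM factors) in 1C-MIM and 147117 to 166957 CPM in Control. Control 1 stood apart in neural transcripts: the 10 neural markers summed to 54.6 CPM there, against 9.86 to 12.5 CPM in 1C-MIM and 11.3 to 14.6 CPM in the other Controls. Control 5 lay farthest out on the first principal component of all tested genes. The creatine genes and the marker counts are also given without these libraries.

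Levels per transcript length placed the creatine genes in 2 orders, 1 shared by all 5 1C-MIM libraries and 1 Control, the other by 4 Controls. On the deposited TPM scale, which accounts for length, Ckm ranged from 20120 to 21677 TPM in 1C-MIM and from 19789 to 21594 TPM in Control, and it was among the 3 most abundant transcripts of every library. Ckmt2 followed at 652 to 806 TPM in 1C-MIM and 750 to 972 TPM in Control. Slc6a8 had 26.2 to 32.3 TPM in 1C-MIM and 24.9 to 32.6 TPM in Control, and Gamt 18.8 to 23.0 TPM in 1C-MIM and 28.4 to 41.3 TPM in Control. These neighbours changed places: Slc6a8 lay above Gamt in 5 of 5 1C-MIM libraries with no overlap of their ranges, whereas in Control Gamt was above Slc6a8 in 4 of 5 libraries and the ranges overlapped. Ckb came next with 4.56 to 5.46 TPM in 1C-MIM and 5.53 to 9.26 TPM in Control. Gatm was lowest with 2.43 to 3.27 TPM in 1C-MIM and 2.92 to 3.30 TPM in Control, and within each group its range did not overlap that of Ckb. The remaining creatine kinase gene, Ckmt1 (the ubiquitous mitochondrial form), had 2 reads in 1C-MIM 1, 1 in 1C-MIM 2, 8 in Control 1 and 4 in Control 4, and 0 in the other 6 libraries, where a count of 0 allows up to 3 reads; it was not tested.

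**Figure D1:**
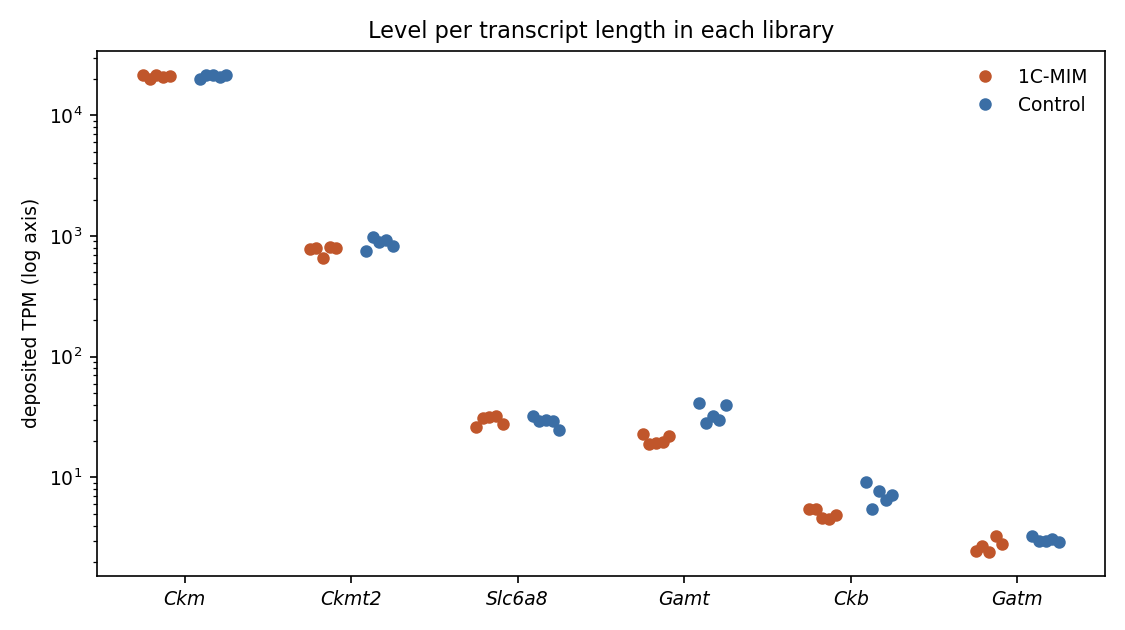
Deposited TPM (log axis) of the 6 creatine genes in each of 5 1C-MIM and 5 Control libraries, each point 1 library. Ckm lies at 19789 to 21677 TPM and Gatm at 2.43 to 3.30 TPM, and the Gamt points of 1C-MIM lie below those of Control.

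With the supplement, Gamt fell by 40.9% in quadriceps and Ckb fell by 31.8%. The uptake gene Slc6a8 and the main kinase Ckm showed fold changes close to 1, and Gatm and Ckmt2, at -11.9% and -13.6%, did not pass the test. By edgeR's quasi-likelihood test with Benjamini-Hochberg adjustment over all 13880 genes (threshold 0.05), 2 of the 6 genes were called lower and 0 higher (0 higher also with DESeq2 and limma-voom, and at an unadjusted p under 0.05). Among all 13880 genes the same rule called 11.8% lower, 9.78% higher and 21.6% in either direction. That is 1357 genes higher and 1642 lower, and with library totals in place of TMM factors 606 higher and 2896 lower. The median log2 fold change was -0.20 over the 6 genes and 0.0009 over all tested genes. No test was made of the share of calls among the 6 genes.

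**Figure D2:**
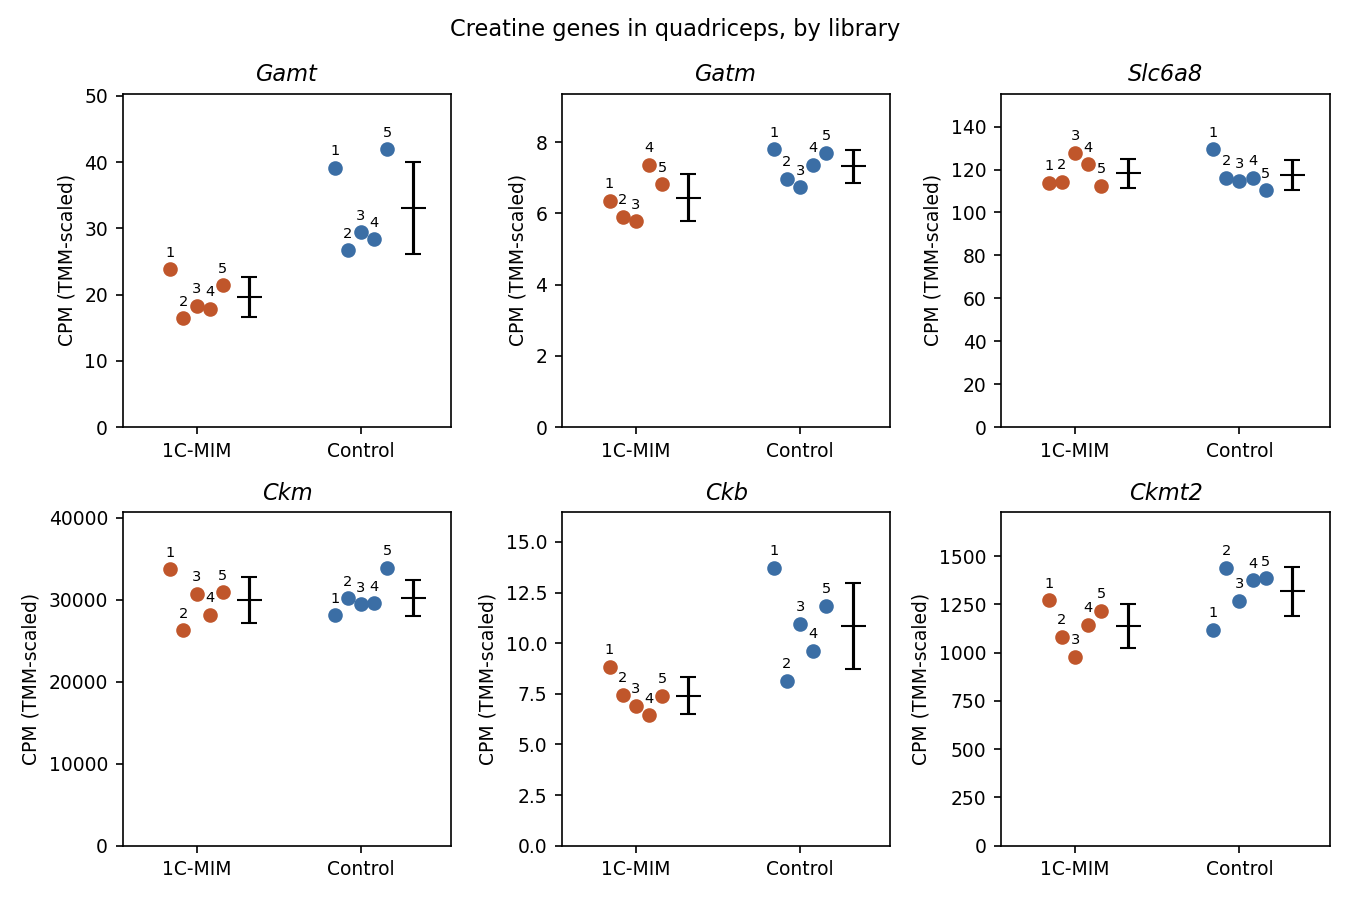
TMM-scaled CPM of each creatine gene in every library, with library numbers beside the points and the mean and SD (n = 5 per group) as black bars. All 5 1C-MIM libraries lie below all 5 Controls for Gamt, 4 of 5 do so for Ckb, and the groups mix for Slc6a8 and Ckm.

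Of the synthesis genes, Gatm was detected at 172 to 221 reads per library in 1C-MIM and 214 to 230 in Control. It had 6.36, 5.91, 5.78, 7.37 and 6.81 CPM in 1C-MIM 1 to 5, against 7.805, 6.98, 6.73, 7.37 and 7.71 CPM in Control 1 to 5. In 1C-MIM 4 the level equalled that of Control 4, and 3 of the 1C-MIM libraries lay below every Control. The mean was 6.45 ± 0.658 CPM in 1C-MIM and 7.32 ± 0.461 CPM in Control (SD, n = 5 each). The log2 fold change of Gatm was -0.18 (SE 0.09, 95% interval -0.38 to 0.01, edgeR adjusted p = 0.157), which in percent runs from -23.0% to 0.842%. Counting error alone was 6.94% per library at its mean read number, against a spread (SD over mean) of 10.2% between 1C-MIM animals and 6.30% between Control animals.

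Gamt, the methyltransferase that completes creatine synthesis, was measured with 478 to 691 reads per library in 1C-MIM and 819 to 1247 in Control. It had 23.9, 16.4, 18.3, 17.9 and 21.4 CPM in 1C-MIM 1 to 5, against 39.1, 26.7, 29.5, 28.4 and 42.0 CPM in Control 1 to 5. The groups did not overlap; of all tested genes 7.98% were lower in this way, 6.60% higher and 14.6% either. Control 1 and Control 5 were well above the other Controls, and 1C-MIM 1 and 1C-MIM 5 were the highest of their group. The mean was 19.6 ± 3.01 CPM in 1C-MIM and 33.1 ± 6.92 CPM in Control (SD, n = 5 each). Gamt fell by 0.76 on the log2 scale (SE 0.14, 95% interval -1.06 to -0.46, edgeR adjusted p = 0.00388). It ranked 457 of 13880 by p. Without Control 1 and Control 5 together it fell by 0.53 (SE 0.11, edgeR adjusted p = 0.00889). The animal numbers in the deposited names fall into a series beginning with 2 (3 animals per group) and a series beginning with 3 (2 animals per group), and the labels do not say what these series are. The difference in mean log2 CPM of Gamt was -0.70 within the first and -0.82 within the second. As the groups did not overlap over all libraries, they could not overlap within either series.

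Ckb, the brain-type cytosolic kinase, was the other gene that fell. Its level was low, with 193 to 256 reads per library in 1C-MIM and 250 to 401 in Control. It had 8.84, 7.45, 6.91, 6.44 and 7.41 CPM in 1C-MIM 1 to 5, against 13.7, 8.15, 10.96, 9.62 and 11.85 CPM in Control 1 to 5. In CPM the groups overlapped in that 1C-MIM 1 lay above Control 2. On the deposited TPM scale they were apart only by 5.46 TPM in 1C-MIM 2 against 5.53 TPM in Control 2. That gap is smaller than the counting error of these libraries (6.79% and 6.32%). The share of all genes apart on the TPM scale was not counted. The mean was 7.41 ± 0.902 CPM in 1C-MIM and 10.9 ± 2.13 CPM in Control (SD, n = 5 each). Ckb fell by 0.55 on the log2 scale (SE 0.13, 95% interval -0.83 to -0.27, edgeR adjusted p = 0.0116). The highest value was that of Control 1, the library with neural transcripts, and without it Ckb fell by 0.45 (SE 0.12, edgeR adjusted p = 0.0210). Without Control 1 and Control 5 together the call ended, at -0.37 on the log2 scale (SE 0.12, edgeR adjusted p = 0.0584), in a fit with 3 Controls. Within the animal series the difference in mean log2 CPM was -0.47 for the first and -0.62 for the second, and the groups overlapped in the first.

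Markers of other cell types moved between the same groups. For comparison, 11.8% of all tested genes were lower and 9.78% higher. Of 10 macrophage markers, 9 had rows under the listed symbols and were tested; 8 of these were lower in 1C-MIM and 0 higher, and their summed level was 145 to 200 CPM in 1C-MIM and 260 to 496 CPM in Control, with no overlap. Without Control 1 and Control 5 together 7 macrophage markers were lower. Of 6 fibroblast markers, 4 were lower and 0 higher (2 lower without Control 1 and Control 5 together), with sums of 591 to 921 CPM in 1C-MIM and 839 to 1202 CPM in Control. Outside Control 1 the sums of the 10 neural markers overlapped between the groups. Of these 10 markers 5 were tested, and 1 was lower and 0 higher, also without Control 1 and Control 5 together. That marker, Tubb2b, a neuronal tubulin, was at an edgeR adjusted p of 0.0499. Its call ended when any of Control 4 or 5 or of 1C-MIM 1 to 5 was left out (edgeR adjusted p = 0.0527 to 0.104), and also with no filter, limma-voom, the animal series as a term or the length trend removed (adjusted p = 0.0677 to 0.123). None of these markers with a row was at 0 in every library. Their part in the decreases of Gamt and Ckb was not tested. In bulk tissue, fewer cells of a type and less RNA per cell cannot be told apart.

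The window around the transcription start is shown for the pair of genes that fell and for Ckm, the abundant kinase whose level did not pass the test, so that their core promoters can be compared. The sequences are RefSeq's, on build GRCm38.p6, while the submitters' processing notes name GRCm39 for the counts; no position was carried between the builds. Each runs 5′ to 3′ along the gene from 250 bases before the start site to 50 bases from it. Capitals mark TATAA and also GGGCGG and also CCAAT on either strand, so a GGGCGG of the opposite strand appears as its reverse complement.
Gamt (chr10:80260963-80261262, minus strand): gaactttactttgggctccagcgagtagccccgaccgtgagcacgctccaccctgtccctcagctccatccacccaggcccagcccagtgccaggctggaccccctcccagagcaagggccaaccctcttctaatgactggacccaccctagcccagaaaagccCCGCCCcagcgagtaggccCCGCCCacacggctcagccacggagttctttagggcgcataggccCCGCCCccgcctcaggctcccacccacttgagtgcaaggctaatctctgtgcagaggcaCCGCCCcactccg
Ckb (chr12:111672289-111672588, minus strand): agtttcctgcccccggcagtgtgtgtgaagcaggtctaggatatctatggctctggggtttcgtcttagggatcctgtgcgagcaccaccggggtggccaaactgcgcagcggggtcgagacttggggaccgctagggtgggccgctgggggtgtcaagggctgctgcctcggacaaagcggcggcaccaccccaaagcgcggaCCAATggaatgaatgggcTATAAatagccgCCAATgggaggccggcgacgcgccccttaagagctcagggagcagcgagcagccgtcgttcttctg
Ckm (chr7:19410844-19411143, plus strand): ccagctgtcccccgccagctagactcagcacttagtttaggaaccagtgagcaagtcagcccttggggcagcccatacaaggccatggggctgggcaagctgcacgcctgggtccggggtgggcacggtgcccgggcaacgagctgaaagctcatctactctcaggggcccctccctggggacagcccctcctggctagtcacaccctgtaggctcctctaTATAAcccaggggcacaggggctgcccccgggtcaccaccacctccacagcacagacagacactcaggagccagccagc

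These promoters differ in the motifs they hold. Gamt holds 4 copies of GGGCGG, all on the strand opposite to the gene, beginning at positions -86, -67, -22 and 38 from the start site, and neither TATAA nor CCAAT in this window. Ckb holds TATAA at position -28, with CCAAT at -46 and -16. Ckm holds TATAA at position -29 and neither of the other motifs. Among 32851 RefSeq promoter windows of the same length, 24.9% hold TATAA, 35.7% GGGCGG and 37.4% CCAAT on either strand, so each motif is common. The window of Gamt is 66.0% G and C with 14 CG pairs, that of Ckb 63.0% with 22, and that of Ckm 64.7% with 7, against medians of 52.7% and 7 over all windows. A match describes letters only. Gamt and Ckb, the genes that fell, shared none of these motifs. Windows were also present for Gatm and Ckmt2, so 5 of the 6 genes matched; Slc6a8 did not.

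Slc6a8, the creatine transporter of the cell membrane, did not pass the test. It had 113.9, 114.2, 127.8, 122.5 and 112.5 CPM in 1C-MIM 1 to 5, against 129.5, 116.2, 114.7, 116.2 and 110.4 CPM in Control 1 to 5. The groups mixed throughout, and the highest value was that of Control 1. The mean was 118 ± 6.67 CPM in 1C-MIM and 117 ± 7.15 CPM in Control (SD, n = 5 each). The log2 fold change was 0.01 (SE 0.06, edgeR adjusted p = 0.926), and its 95% interval of -0.12 to 0.14 runs from -7.84% to 9.93% in percent. Its counting error was 1.68% per library, below the spread of 5.64% between 1C-MIM animals and 6.09% between Control animals (SD over mean). The sign turned under some settings, with library totals as scaling (-0.066), with each library's length trend removed (-0.042), and without Control 5 or without 1C-MIM 3 (-0.0065 and -0.0148), and no setting gave a call.

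Ckm, the muscle-type kinase, did not pass the test either. It had 33702, 26305, 30764, 28203 and 30952 CPM in 1C-MIM 1 to 5, against 28097, 30169, 29468, 29561 and 33930 CPM in Control 1 to 5. The highest and second highest values were those of Control 5 and 1C-MIM 1, and the lowest was that of 1C-MIM 2. The mean was 29985 ± 2832 CPM in 1C-MIM and 30245 ± 2195 CPM in Control (SD, n = 5 each). The log2 fold change was -0.01 (SE 0.07, edgeR adjusted p = 0.921), with a 95% interval of -0.17 to 0.15 that runs from -11.2% to 10.7% in percent. The sign turned without Control 5 (0.0376), without 1C-MIM 2 (0.0317), without 1C-MIM 4 (0.0138) and without Control 1 and Control 5 together (0.0122), in each case with no call. Its transcript alone held 2.63 to 3.17% of counts in 1C-MIM and 2.88 to 3.37% in Control.

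Ckmt2, the sarcomeric mitochondrial kinase, lay under the Control mean in each 1C-MIM library, without passing the test. It had 1271, 1082, 980, 1144 and 1217 CPM in 1C-MIM 1 to 5, against 1118, 1440, 1268, 1375 and 1386 CPM in Control 1 to 5. Control 1 and Control 3 lay within the 1C-MIM range, and Control 2, Control 4 and Control 5 lay above every 1C-MIM library. The mean was 1139 ± 114 CPM in 1C-MIM and 1317 ± 128 CPM in Control (SD, n = 5 each). Its difference was -0.21 on the log2 scale (SE 0.08, 95% interval -0.39 to -0.03, edgeR adjusted p = 0.0822). The call was gained without Control 1 (-0.26, SE 0.08, edgeR adjusted p = 0.0296), without 1C-MIM 1 (-0.25, SE 0.08, edgeR adjusted p = 0.0467) and with library totals as scaling (-0.28, SE 0.08, edgeR adjusted p = 0.0213). With the length trend removed the log2 fold change was -0.06 (SE 0.07, edgeR adjusted p = 0.589).

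The makeup of the creatine kinase transcripts was dominated by Ckm in both groups. Per transcript length, Ckm made up 96.2 to 97.0% of the summed TPM of the 4 kinase genes in 1C-MIM and 95.6 to 96.3% in Control. Ckmt2 made up 2.94 to 3.77% in 1C-MIM and 3.65 to 4.35% in Control. Ckb made up 0.0209 to 0.0261% in 1C-MIM and 0.0247 to 0.0450% in Control. The ranges overlapped for each of these kinases, and no test was made of the shares. The ratio of Ckm to Ckmt2 TPM was 27.8 ± 3.03 in 1C-MIM and 24.2 ± 1.91 in Control (SD, n = 5 each). The ratio of Slc6a8 to Gamt TPM was 1.14 to 1.66 in 1C-MIM and 0.627 to 1.04 in Control, and the ratio of Gamt to Gatm was 6.06 to 9.38 in 1C-MIM and 9.56 to 13.6 in Control. Neither ratio overlapped between the groups, and each contains the Gamt values already described. The ratios of Gamt to Gatm were apart only by 9.38 in 1C-MIM 1 against 9.56 in Control 2. That gap is smaller than the counting error of Gatm in these libraries (7.37% and 6.84%). The share of all gene pairs whose ratios were apart was not counted.

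Fold changes in these libraries followed transcript length, and the creatine transcripts are mostly short. Gamt, with 944 bases, lay in the shortest length decile of tested genes, whose median log2 fold change was -0.21 and of which 28.4% were called lower. Ckm, Ckb and Ckmt2, with 1415, 1478 and 1486 bases, lay in the second decile, with a median of -0.14 and 21.3% called lower. Gatm, with 2357 bases, was in a decile with a median of -0.05, and Slc6a8, with 3964 bases, in one with a median of 0.08. With each library's trend with length removed, where 7.91% of all tested genes were called lower, 8.35% higher and 16.3% either, Gamt still fell by 0.55 (SE 0.11, edgeR adjusted p = 0.00420) and Ckb by 0.40 (SE 0.12, edgeR adjusted p = 0.0302). In that fit Ckm turned to 0.15 (SE 0.06, edgeR adjusted p = 0.0854) and Gatm was at -0.12 (SE 0.09, edgeR adjusted p = 0.355).

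**Figure D3:**
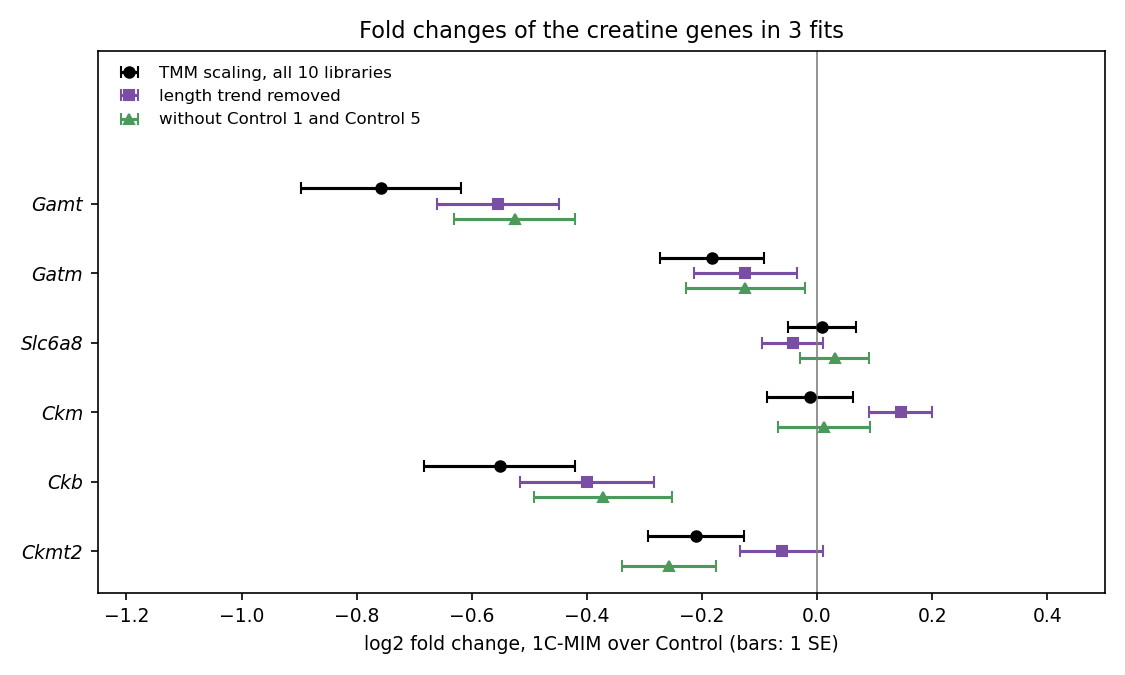
Log2 fold changes (1C-MIM over Control, bars 1 SE) of the creatine genes with all 10 libraries, with the length trend removed, and without Control 1 and Control 5. Gamt and Ckb stay below 0 in all 3, Ckmt2 moves to -0.06 and Ckm to 0.15 with the length trend removed.

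Among themselves, Gamt and Ckb varied together across libraries. Across the 10 libraries, which share the group difference, Pearson's r between their log2 CPM was 0.93, and it was 0.81 for deviations from the group means, given as a description. Control 1, Control 5 and 1C-MIM 1 were high in both genes for their group. Ckmt2 and Slc6a8 ran opposite ways within groups (r = -0.79 for deviations from the group means), with Control 1 and 1C-MIM 3 lowest in Ckmt2 and highest in Slc6a8 of their groups. The other pairs within groups lay between -0.39 and 0.62.

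**Figure D4:**
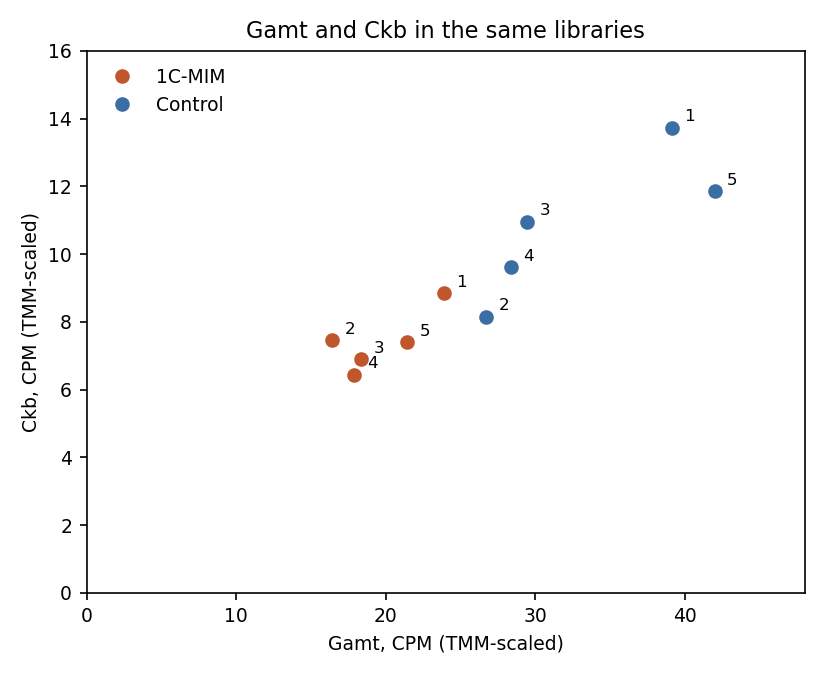
CPM of Gamt against CPM of Ckb in each library (TMM-scaled), with library numbers beside the points. The 1C-MIM points lie at 16.4 to 23.9 CPM of Gamt and 6.44 to 8.84 CPM of Ckb, and Control 1 and Control 5 lie at the upper right.

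The genes whose log2 CPM was most like that of each creatine gene over the 10 libraries were sought among 7930 genes with a mean log2 CPM of at least 3, as a description of these libraries only. For Gamt they were Eno1b and Eno1 (enolase 1), both with r = 0.99, which are near-identical copies whose reads cannot be separated and which count as a single measurement. Eno1 fell too (log2 fold change -0.38, edgeR adjusted p = 0.00949). For Ckb they were Anxa7 and Carhsp1 (both r = 0.97, and 0.92 for deviations from the group means). For Ckm they were Cox6a2, the heart and muscle form of a cytochrome oxidase subunit (r = 0.98), and Rtn2 (r = 0.97). For Ckmt2 they were Acads, the short-chain acyl-CoA dehydrogenase of mitochondria (r = 0.95), and Pcbp4 (r = 0.95). For Slc6a8 they were Tob1 (r = 0.95) and Srgap2 (r = 0.91), and for Gatm Ccnh (r = 0.93) and Gskip (r = 0.92).

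A list of genes around creatine's precursors, called precursor genes here, showed a few increases. It also holds genes that handle by-products (Oat, Ahcy and Adk), the Ahcy relative Ahcyl1, the transporter Slc16a12 and the kinase Ckmt1. Of its 15 genes 13 were tested, and 3 were higher, 0 lower and 10 not past the edgeR test. The share of all tested genes was 9.78% higher and 11.8% lower, and no test was made of the list. The median log2 fold change was -0.01. Once the length trend was taken out, 2 were higher and 0 lower. With library totals as scaling 2 were lower, and 1 was lower without Control 2 or without 1C-MIM 5. Slc7a2, a transporter of arginine and other cationic amino acids, had 69.7 to 82.4 CPM in 1C-MIM and 49.2 to 68.0 CPM in Control, without overlap, and rose by 0.37 on the log2 scale (SE 0.08, edgeR adjusted p = 0.00768). Once the length trend was taken out it was at 0.18 (edgeR adjusted p = 0.0603). Oat, which consumes the ornithine that Gatm releases, had 287 to 351 CPM in 1C-MIM and 257 to 287 CPM in Control and rose by 0.25 (SE 0.06, edgeR adjusted p = 0.0130). Ahcyl1, a relative of the enzyme that clears S-adenosylhomocysteine, was at 0.19 (SE 0.06, edgeR adjusted p = 0.0354), a call that ended when any of Control 3, 4 or 5 or of 1C-MIM 2, 4 or 5 was left out (edgeR adjusted p = 0.0537 to 0.0883) and with library totals, the length trend removed or Control 1 and Control 5 left out together (edgeR adjusted p = 0.0594 to 0.254). That enzyme itself, Ahcy, which removes the by-product of the Gamt reaction, was at -0.16 on the log2 scale (SE 0.06, edgeR adjusted p = 0.0731). Its groups were apart only by 13.86 CPM in 1C-MIM 5 against 14.18 CPM in Control 3. Among all tested genes, 7.98% were lower and 6.60% higher without overlap. Ahcy passed with library totals as scaling (-0.24, edgeR adjusted p = 0.0125), where 2896 genes were lower. With the length trend removed it did not pass (-0.12, edgeR adjusted p = 0.185).

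The partners of the creatine kinase shuttle moved in both directions. By edgeR 4 of 18 rose, 4 fell and 10 did not pass, with a median log2 fold change of -0.03. The share of all tested genes was 9.78% higher and 11.8% lower. With the length trend removed, 6 were higher and 1 lower, against 8.35% and 7.91% of all tested genes. No test was made of the list. Ampd1, the muscle AMP deaminase, had 1929, 1454, 1881, 1674 and 1758 CPM in 1C-MIM 1 to 5, against 1118, 1140, 978, 1093 and 1127 CPM in Control 1 to 5. Every 1C-MIM library was above every Control, and Ampd1 rose by 0.67 on the log2 scale (SE 0.08, edgeR adjusted p = 0.000172). Its relative Ampd3 rose by 0.37 (SE 0.08, edgeR adjusted p = 0.00831). Atp2a1, the fast-fibre calcium pump that draws on ATP near Ckm, was at 45018 ± 2782 CPM in 1C-MIM and 37414 ± 426 CPM in Control (SD, n = 5 each) and rose by 0.27 (SE 0.06, edgeR adjusted p = 0.00614). Myom1, a protein of the M band, rose by 0.36 (SE 0.06, edgeR adjusted p = 0.00166). Nme1, a nucleoside diphosphate kinase, fell by 0.55 (SE 0.10, edgeR adjusted p = 0.00257), and Slc25a5, an exchanger of ADP and ATP in mitochondria, fell by 0.30 (SE 0.05, edgeR adjusted p = 0.00260). Slc25a5 lost its call once the length trend was taken out (-0.12, edgeR adjusted p = 0.114).

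Of 13 known regulators of creatine kinase or transporter genes, 1 was higher, 2 lower and 10 not past the edgeR test. Among all tested genes 9.78% were higher and 11.8% lower, and no test was made of the list. The median log2 fold change of the list was 0.12. Once the length trend was taken out it was -0.01, with 1 higher and 2 lower. The count higher was 0 to 2 when 1 library was left out. Myod1, which binds the muscle enhancer of Ckm, was at 23.7 ± 2.92 CPM in 1C-MIM and 35.6 ± 3.26 CPM in Control (SD, n = 5 each) and fell by 0.59 (SE 0.09, edgeR adjusted p = 0.00123). Myog, the related factor myogenin, fell by 1.26 (SE 0.21, edgeR adjusted p = 0.00262), at 3.76 ± 0.570 CPM in 1C-MIM and 9.03 ± 3.33 CPM in Control (SD, n = 5 each). Prkaa2, the AMP-activated kinase subunit of muscle, was at 0.35 (SE 0.10, edgeR adjusted p = 0.0284), a call that ended when any of Control 3, 4 or 5 or of 1C-MIM 2, 3 or 4 was left out (edgeR adjusted p = 0.0509 to 0.0690) and with library totals or the length trend removed (edgeR adjusted p = 0.0847 to 0.0866). Mef2c, a further factor of the Ckm enhancer, was at 0.23 on the log2 scale (SE 0.08, edgeR adjusted p = 0.0513). It passed without Control 1 or without 1C-MIM 5 (edgeR adjusted p = 0.0306 to 0.0335), with DESeq2 size factors (0.0409), with upper-quartile factors (0.0473), with either other filter or limma-voom (0.0468 to 0.0487) and with DESeq2 itself (0.0220), and did not pass with library totals (edgeR adjusted p = 0.195) or the length trend removed (edgeR adjusted p = 0.326).

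Among 16 mitochondrial proteins, against which Ckmt2 can be read, 0 were higher, 1 lower and 15 not past the edgeR test. The share of all tested genes was 9.78% higher and 11.8% lower, and no test was made of the list. In the 13 alternatives run for this list 0 were higher as well. The median log2 fold change was -0.05, and 0.08 with the length trend removed. With library totals as scaling 6 were lower, and without 1C-MIM 1 4 were lower. Cox7a1, the muscle form of a cytochrome oxidase subunit, fell by 0.43 (SE 0.09, edgeR adjusted p = 0.00656), and by 0.24 with the length trend removed (edgeR adjusted p = 0.0156). Cox4i1 had -0.23 (SE 0.09, edgeR adjusted p = 0.0768), and passed without 1C-MIM 1 (edgeR adjusted p = 0.0117) and with library totals (edgeR adjusted p = 0.0126). With the length trend removed Cox4i1 was at -0.02 (edgeR adjusted p = 0.844). The difference between Ckmt2 and these genes was not tested.

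**Figure D5:**
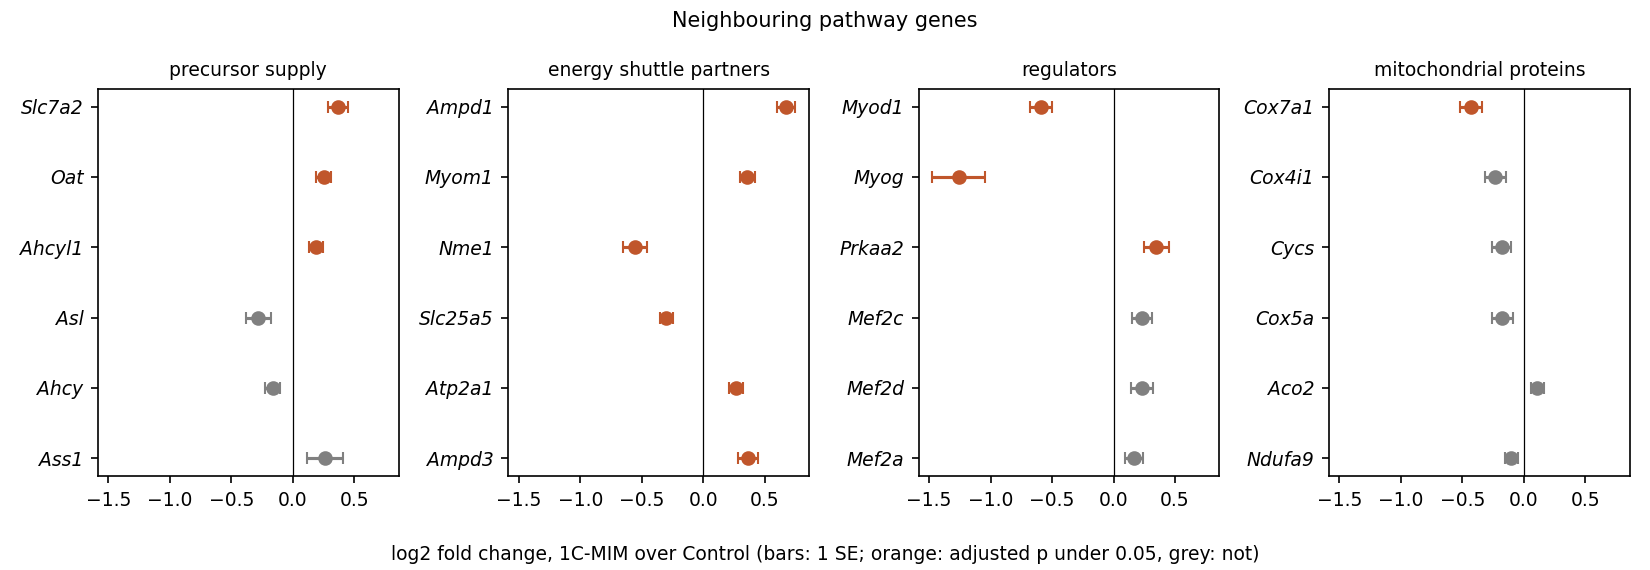
Log2 fold changes (1C-MIM over Control, bars 1 SE) of the 6 genes with the smallest p in each neighbouring list, orange where the edgeR adjusted p was under 0.05 and grey where it was not. Ampd1 at 0.67 and Myog at -1.26 are the widest of these.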

How the data were processed

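RNA-seq of quadriceps was read from 10 deposited tables, each of 33984 RefSeq transcripts. Per the file headers each table gives a count, an FPKM and a TPM. The authors' deposited counts are whole numbers per transcript. Lengths were computed from counts and the deposited FPKM. Levels across genes rest on the authors' TPM, which corrects for length. Build GRCm39, StringTie 2.2.1, featureCounts, STAR, Salmon 1.5.2 and Trim Galore 0.6.7 stand in the submitters' processing notes without roles; the sources used here do not state strandedness.

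The transcript with the most reads represented each symbol, the first by name in a tie. The others, with 45.3 to 47.4% of all counts, were left out. Part of that share may be the same reads counted again, as the 3 Slc6a8 transcripts carried identical counts. Groups came from the titles. Counts were filtered with filterByExpr, scaled with TMM and tested with edgeR 4.0.16 (R 4.3.3, quasi-likelihood, robust), with Benjamini-Hochberg adjustment over 13880 genes; log2 CPM used a prior count of 2. SE is the fold change over the root of F. On simulated counts the fit recovered 79% of genes changed by 0.75 on the log2 scale and 96% of those changed by 1.5. Of its 188 calls 13 were false. Smaller changes were not simulated. Depth was 28521254 to 31771296 counts per library; counting errors cover counting only. The length trend was removed with natural splines of 3 inner knots. Alternatives also used DESeq2 1.42.0 and limma 3.58.1.

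From each neighbouring list the up to 6 genes with the smallest p could be named, from each marker list up to 3, and for each creatine gene the 2 with the highest r. Members and lists were chosen with earlier results of these data known. Replicate numbers were not taken as pairs, because the labels do not say that they pair animals. Of the same-numbered pairs, 3 of 5 correlated above 0.1.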

Additional observations from a re-analysis of the deposited data

Results flagged for a closer look

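In each group of 5 libraries, a value was marked when its gap to the nearest other library, divided by the range of the group, was over 0.71; chance marks about 1 in 20 groups, and 82 groups of values were looked at. No value of the 6 creatine genes or of the kinase shares was marked. The neural markers summed to 54.6 CPM in Control 1, against 11.3 to 14.6 CPM in the other Controls. Slow fibre markers summed to 1142 CPM in 1C-MIM 2, against 941 to 986 CPM in the other 1C-MIM libraries, and smooth muscle markers to 318 CPM there, against 247 to 267 CPM.

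Among neighbouring genes, 1C-MIM 3 was high for Myom1 (2573 CPM), and 1C-MIM 1 was high for Nme1 (28.6 CPM) and Cox5a (607 CPM). Control 5 was low for Ahcyl1 (32.8 CPM) and high for Cox5a (672 CPM). Control 3 was low for Ampd1 (978 CPM), and Control 1 was low for Myod1 (29.9 CPM).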

How the results depend on the processing

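Gamt was called lower in all 22 alternatives, with log2 fold changes of -0.83 to -0.53. Ckb was called lower in 21 of 22, and at -0.37 without Control 1 and Control 5 together the call was lost. Gatm was below 0 and without a call in all 22. Ckmt2 gained a call with library totals (-0.28), without Control 1 and without 1C-MIM 1. Without Control 1 and Control 5 together Ckmt2 was at -0.26 (edgeR adjusted p = 0.0578) and had no call. In that fit Gatm was at -0.12 (edgeR adjusted p = 0.452) and Slc6a8 at 0.03 (edgeR adjusted p = 0.768). With 1 library left out, the log2 fold changes were -0.83 to -0.65 for Gamt, -0.23 to -0.14 for Gatm, -0.0148 to 0.0469 for Slc6a8, -0.054 to 0.0376 for Ckm, -0.64 to -0.45 for Ckb and -0.26 to -0.16 for Ckmt2. Slc6a8 changed sign with library totals (-0.066) and with the length trend removed (-0.042), and Ckm with the length trend removed (0.15) and without Control 1 and Control 5 together (0.0122), all without a call; the cause was not tested. Of all tested genes 1357 were higher and 1642 lower, with library totals 606 and 2896, without Control 1 and Control 5 together 832 and 976, and with 1 library left out 739 to 1558 and 941 to 1885 (1C-MIM 4 gave the lowest counts, 1C-MIM 3 gave 843 and 1057, Control 4 gave 902 higher). With library totals the median over all genes was -0.07.

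In the neighbouring lists, library totals gave 2 precursor genes and 6 mitochondrial genes lower and 0 regulators higher, and removing the length trend gave 1 shuttle partner lower. With 1 library left out, 0 to 1 precursor genes were lower and 2 to 3 higher, 3 to 4 shuttle partners lower and 4 to 5 higher, 2 to 3 regulators lower and 0 to 2 higher, and 1 to 4 mitochondrial genes lower and 0 higher. With replicate number as a block, 1932 genes were higher and 1965 lower; Gamt was at -0.75 (SE 0.06), Ckb at -0.54 (SE 0.10), Gatm at -0.19, Ckmt2 at -0.21, Ckm at -0.01 and Slc6a8 at 0.01, with no change of call among these. In the same fit Mef2c (edgeR adjusted p = 0.0128), Mef2d, Asl, Cycs, Prx and Retn gained a call, and Lep (0.0512), Col1a1 (0.0502) and Tubb2b (0.101) lost theirs. The same-numbered samples correlated at -0.08 to 0.39, and 4 of 10 samples correlated best with their own number, so the pairing is a hint from the data at most. Depth limits Gatm and Ckb most, at 172 to 401 reads per library.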

Other observations

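Other marker lists gave values that enter no comparison of the creatine genes. For comparison, 9.78% of all tested genes were higher and 11.8% lower. By edgeR, 4 of 8 slow and oxidative fibre markers fell in 1C-MIM and 0 rose, with Tnni1, the slow troponin I, at -2.62 on the log2 scale (SE 0.24, edgeR adjusted p = 8.59e-05); the list's sum was 941 to 1142 CPM in 1C-MIM and 425 to 927 CPM in Control. Most of that sum was Myh2, the oxidative fast myosin, which was chosen for naming after its values were seen, at 949.7 ± 76.7 CPM in 1C-MIM and 650.5 ± 195 CPM in Control (SD, n = 5 each), 0.55 on the log2 scale (SE 0.18, edgeR adjusted p = 0.0538). Of 9 general muscle markers, 4 were higher and 0 lower, with Actn3, the fast-fibre actinin, at 0.45 (SE 0.08, edgeR adjusted p = 0.00339). Of 8 Schwann cell markers 1 was higher and 0 lower, of 6 smooth muscle markers 0 were higher and 1 lower, and of 6 tested adipocyte markers 1 was higher and 0 lower. With 1 library left out, 0 to 3 Schwann cell markers were higher and 0 to 3 smooth muscle markers lower. The Schwann cell call, Mbp, ended without Control 4 or either of 1C-MIM 4 and 5 (edgeR adjusted p = 0.0535 to 0.0556), and the smooth muscle call, Smtn, without Control 5 or any of 1C-MIM 3, 4 and 5 (edgeR adjusted p = 0.0551 to 0.0948). Without Control 1 and Control 5 together, 1 slow fibre marker was higher and 4 lower, 3 general muscle markers and 1 Schwann cell marker were higher, and 0 smooth muscle and 0 adipocyte markers passed in either direction (edgeR adjusted p = 0.108 for Smtn and 0.0964 for Lep, the adipocyte call). The adipocyte sums were 365 to 635 CPM in 1C-MIM and 429 to 519 CPM in Control.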
